A study of Rattus norvegicus with 42 samples.

Results

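The mRNA response of rat liver to a constant infusion of corticosterone (CORT), the main glucocorticoid of the rat, was measured in 6 RNA-Seq libraries, 3 from rats infused with CORT (CONS CORT) and 3 from rats infused with vehicle (CONS VEH), of the 42 libraries in the series. All genes with more than 10 reads summed over the 12 RNA libraries were taken, which were 14092 of the 22929 genes in the count table, so that no gene was picked for its response. The rats were male Sprague Dawley rats without adrenal glands, and each received CORT in a cyclodextrin carrier (0.0035 g of the CORT complex, per the labels) or vehicle into the jugular vein at 0.333 ml/h for 3 h, with a brief faster start per the methods, after which the liver was taken at 180 min. The other 6 RNA libraries came from rats given the same agents in hourly pulses (PULS CORT and PULS VEH, 3 each), and GR and polymerase ChIP-Seq libraries of the same series are used below only where they bear on the constant infusion. All rats, controls included, had been given dexamethasone once after surgery and CORT in the drinking water during recovery, which was withdrawn before the infusion, so both groups had met a glucocorticoid in the preceding days. The methods state that vehicle was delivered in pulses, whereas the labels of the 3 CONS VEH libraries give a constant vehicle infusion. Each library carries its own sample number in the labels and is read as 1 animal. The labels do not state this in words, and p-values measure the spread between these samples. The sample numbers of the CORT and vehicle RNA libraries lie in separate ranges, and the labels do not say what the numbers stand for. Any difference that goes with these numbers cannot be told apart from that of CORT.

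Glucocorticoids enter hepatocytes, bind the glucocorticoid receptor (GR) and send it to the nucleus, where it raises or lowers transcription from sites near its target genes. In liver the hormone is known for raising the enzymes that break down amino acids and turn them into glucose and urea, for changing lipid synthesis together with insulin, and for damping inflammatory genes. Rats without adrenal glands have lost the main source of CORT, which the infusion replaces.

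Between 4711659 and 7777219 reads per library were assigned to genes in the 6 libraries, and Alb, which encodes albumin, took 7.07% to 11.2% of them. Levels are given in CPM, read counts scaled to a common library total with a correction for library composition, and since CPM do not correct for gene length they are compared between samples and not between genes. Summed markers of hepatocytes lay at 173196 to 186482 CPM in CONS CORT and 144552 to 192077 CPM in CONS VEH, and 2 of the 10 members, Cps1 and Tat, were raised. Of marker lists for other liver and blood cells, none of the members passed for Kupffer cells (10 members), sinusoidal endothelium (9), T and NK cells (7), cholangiocytes (4) or neutrophils (4). Among all genes tested 9.2% were raised or lowered. Among 9 stellate cell markers Rgs5 and Dcn were raised and Pdgfrb was lowered, the summed level being 494 to 546 CPM in CONS CORT and 583 to 711 CPM in CONS VEH. Pax5, a B cell factor, and Slc4a1, a red cell anion exchanger, were lowered (log2 fold changes -1.43 and -1.56), but Pax5 lost the call without any 1 library other than CONS VEH replicate 3 (-1.23 to -1.51) and Slc4a1 without any 1 library other than CONS VEH replicate 1 (-1.25 to -1.67). Dcn (1.16) lost its call without CONS CORT replicate 1 (0.80), CONS VEH replicate 1 (1.05) or CONS VEH replicate 3 (1.04). The part of these cells in the results below was not tested. In whole liver, fewer cells of a type and less RNA per cell cannot be told apart.

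CONS VEH replicate 2 stood apart from all other RNA libraries in inflammatory plasma proteins. Lcn2, a bacterial iron-trapping protein, was at 139 CPM in it and at 0.495 to 2.49 CPM in the other 11 libraries. Orm1, an acute phase glycoprotein, was at 5227 CPM there against 800 and 1240 CPM in the other two CONS VEH libraries and 534, 673 and 623 CPM in CONS CORT. The log2 fold change of Lcn2 was -5.90 (SE 1.49, adjusted p = 0.0144) with this library and -0.99 (adjusted p = 0.323) without it, and that of Orm1 was -1.99 (SE 0.49, adjusted p = 0.0125) with it and -0.74 (adjusted p = 0.092) without it. Lcn2 also lost the call without CONS CORT replicate 1 or 3 (adjusted p = 0.0544 and 0.0588), and Orm1 without CONS CORT replicate 1 (adjusted p = 0.0555). Their calls are therefore not relied on, although both stay in the counts of lowered genes and in the shares of reads below. List counts that change without this library are given both ways.

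Constant CORT changed 1297 of the 14092 genes, or 9.2% of those tested, relative to CONS VEH. A gene was called raised or lowered at an adjusted p below 0.05 (edgeR quasi-likelihood test, Benjamini-Hochberg adjustment) and a change of more than 1.5-fold. Of the 1297, 627 were raised (4.45% of genes tested) and 670 lowered (4.75%), so both directions held nearly equal numbers. The median size of the change was 0.99 on the log2 scale in each direction, against 0.29 over all genes tested. More than 2-fold changes were seen for 308 raised and 326 lowered genes, more than 4-fold for 96 and 68, and more than 8-fold for 38 and 17, so that the largest changes were more often increases. The 3 CORT and 3 VEH values did not overlap for 617 of the raised and 651 of the lowered genes, compared with 4144 of all 14092 genes. The same values made the calls, so separate groups in called genes, here and below, are largely given by the choice and are no further test. Without CONS VEH replicate 2, 516 of the raised and 531 of the lowered genes were called again, and leaving out each of the 6 libraries in turn left 716 genes called every time (391 raised, 325 lowered), with 0 changes of sign.

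The response took in abundant as well as scarce transcripts. Reads from the 627 raised genes made up 4.75% ± 0.27 of all reads (SD, n = 3) in CONS VEH and 11.3% ± 0.19 in CONS CORT. Reads from the 670 lowered genes fell from 8.86% ± 0.37 to 4.81% ± 0.31. These shares describe the called genes and are not a test, since the same libraries chose them. The share of genes called rose with the level: under 1 CPM 0.735% of 2450 genes were raised and 0.898% lowered, at 20 to 100 CPM 5.91% and 5.66% of 3941 genes, and above 500 CPM 12.9% and 12.4% of 186 genes. The median standard error of the log2 fold change fell over the same range from 0.85 to 0.14, and the median size of the called changes from 2.76 to 0.84, so scarce genes passed only when the change was large. Whether abundant genes respond more often, or are only measured more precisely, cannot be told apart from these shares.

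**Figure D1:**
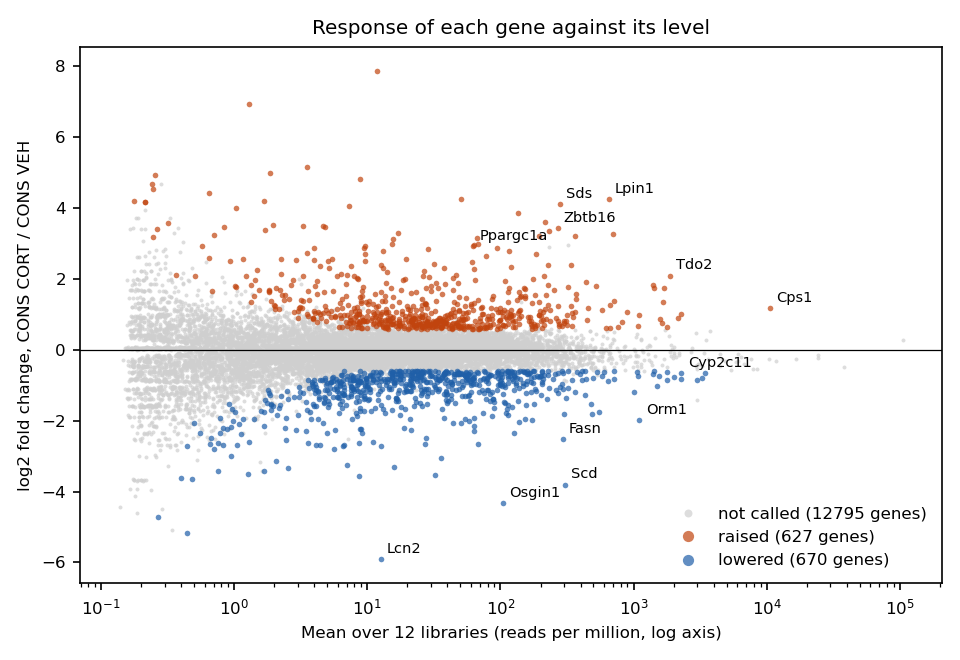
Log2 fold change of CONS CORT over CONS VEH (vertical axis) against mean CPM (horizontal axis, log scale) for all 14092 genes, with raised genes in orange, lowered genes in blue and uncalled genes in grey. Called changes below 1 CPM lie far from 0, while above 500 CPM changes with a median size of 0.84 pass.

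Among abundant transcripts, Cps1, the entry enzyme of the urea cycle, gained the most reads. It was at 14711, 15888 and 17529 CPM in CONS CORT replicates 1 to 3 and at 5861, 7348 and 7999 CPM in CONS VEH, a log2 fold change of 1.18 (SE 0.14, adjusted p = 3.37e-05). Adk, adenosine kinase, was at 3039, 2772 and 2685 CPM against 1025, 716 and 811 CPM (log2 fold change 1.73, SE 0.14, adjusted p = 4.95e-07). The 3 CORT libraries lay above the 3 VEH libraries for both genes. Losses of reads were smaller in fold. Ghr, the growth hormone receptor, was at 886, 1027 and 940 CPM against 2139, 1659 and 1972 CPM (log2 fold change -1.02, SE 0.15, adjusted p = 0.000221), and Acsl1, which activates long-chain fatty acids, was at 1164, 1227 and 1485 CPM against 2217, 2098 and 2623 CPM (log2 fold change -0.84, SE 0.14, adjusted p = 0.000838). Again the groups did not overlap. Among the genes with the largest loss of reads, the complement gene C9 and Orm1 were no longer called without CONS VEH replicate 2 (log2 fold changes -0.55 and -0.74). The cytochromes Cyp2c11 and Cyp2c6v1 also lost their calls without single other libraries, Cyp2c11 without CONS CORT replicate 1 (-0.64, adjusted p = 0.0585) or CONS VEH replicate 3 (-0.46, adjusted p = 0.0917) and Cyp2c6v1 without CONS CORT replicate 1 (-0.77, adjusted p = 0.0724) or 3 (-0.61, adjusted p = 0.0786).

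The largest increase among genes at 5 CPM or more was at AABR07015559.1, an uncharacterised gene, which was at 34.5, 25.3 and 33.3 CPM in CONS CORT and at 0, 0.22 and 0.18 CPM in CONS VEH. With only 2 reads in the 3 VEH libraries together against 536 in CORT, the ratio was 278 with an exact 95% interval of 76.5 to 2299 that covers counting error only. Lpin1, which makes diacylglycerol for triglyceride synthesis and also acts as a transcriptional coactivator, was at 985, 2145 and 1837 CPM in CONS CORT and at 88.9, 99.9 and 70.8 CPM in CONS VEH (log2 fold change 4.26, SE 0.26, adjusted p = 4.56e-08). The lowest CORT library, replicate 1, still lay far above the highest VEH library. Sds, serine dehydratase, which feeds serine carbon into gluconeogenesis, was at 532, 875 and 887 CPM against 19.8, 47.8 and 66.4 CPM (log2 fold change 4.11, SE 0.42, adjusted p = 8.74e-06). The other genes of this group of 12 were Zfp354a, a zinc finger repressor (4.25), Noct, a clock-linked phosphatase (4.06), Mfsd2a, a transporter of lysophospholipids (3.86), Etnppl, ethanolamine phosphate lyase (3.62), Zbtb16, a zinc finger factor (3.44), Upp2, uridine phosphorylase (3.36), Usp2, a deubiquitinase (3.30), and the uncharacterised genes AABR07027072.1 (4.84) and AABR07042825.1 (3.48), all as log2 fold changes with adjusted p between 4.01e-09 and 0.000378. In each of the 12 the 3 CORT values lay above the 3 VEH values by the rule that chose them.

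The lowered gene with the firmest large change was Osgin1, an oxidative stress-induced growth inhibitor. It was at 14.2, 11.7 and 6.99 CPM in CONS CORT and at 176, 219 and 263 CPM in CONS VEH (log2 fold change -4.32, SE 0.32, adjusted p = 2.67e-07). Scd, the desaturase that makes monounsaturated fatty acids, was at 19.5, 21.3 and 91.4 CPM in CONS CORT and at 202, 352 and 1286 CPM in CONS VEH (log2 fold change -3.80, SE 0.79, adjusted p = 0.00394). Replicate 3 was the highest of each group for Scd, and the groups did not overlap. Inhba, a subunit of activin, was at 2.44, 4.22 and 0.72 CPM against 33.4, 24.9 and 18.1 CPM (log2 fold change -3.31, SE 0.36, adjusted p = 1.64e-05). Slc34a2, a phosphate transporter, was at 4.06, 9.57 and 5.19 CPM against 60.6, 48.7 and 51.2 CPM (log2 fold change -3.04, SE 0.27, adjusted p = 1.65e-06). Aacs, which activates acetoacetate for lipid synthesis, Ppp2r2b, a phosphatase subunit, and Ccdc146, a coiled-coil protein, fell by 2.70, 2.66 and 2.66, and LOC498826 and the uncharacterised AABR07068203.1, AABR07030091.1 and AABR07021930.1 by 2.72, 3.53, 3.26 and 2.69 on the log2 scale. Lcn2 completed this group of 12 only through CONS VEH replicate 2. With the counts so low that a CORT group held 0 reads, Pnoc and AABR07018262.2 (chosen after their values were seen) were at least 3.54-fold and 4.83-fold lower against a limit of 3 reads for the group, and in 7 raised genes all VEH libraries held 0 reads, with Nyap2 at least 16.9-fold higher and the other 6 at least 2.42-fold to 4.15-fold.

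**Figure D2:**
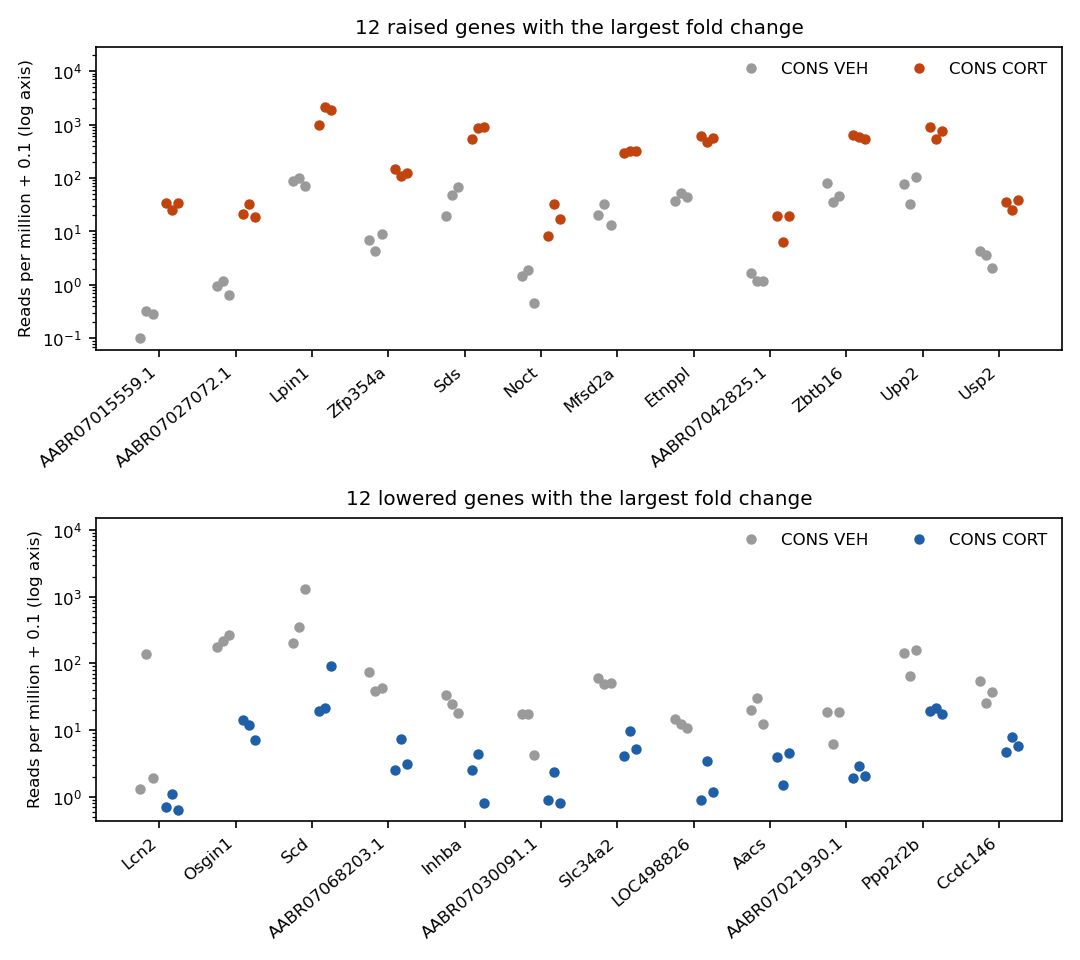
CPM plus 0.1 (log axis) in each of the 3 CONS VEH (grey) and 3 CONS CORT libraries (orange or blue) for the 12 raised and the 12 lowered genes with the largest fold change. The groups are separate for every gene by the rule that chose the genes, while for Lcn2 a single VEH library at 139 CPM sets the distance.

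Of 19 long-known glucocorticoid targets tested, 12 were raised and 3 lowered, with a median log2 fold change of 1.37 against -0.01 over all genes. Among all genes tested 4.45% were raised and 4.75% lowered. Such genes are listed because they respond to glucocorticoids elsewhere. The list was also drawn up with earlier results of these data known, so these counts are a description and not a test of the infusion. Per1, a clock repressor with well-studied GR sites, was at 27.2, 30.7 and 31.5 CPM in CONS CORT and at 2.44, 4.41 and 3.8 CPM in CONS VEH (log2 fold change 3.13, SE 0.27, adjusted p = 1.23e-06). Tsc22d3, which encodes the anti-inflammatory protein GILZ, was at 32.7, 28 and 35.3 CPM against 3.42, 3.75 and 4.89 CPM (log2 fold change 3.00, SE 0.29, adjusted p = 5.15e-06). Fkbp5, a co-chaperone that holds GR in a state of low affinity, was at 194, 97.7 and 138 CPM against 19.2, 18.5 and 17.7 CPM (log2 fold change 2.95, SE 0.26, adjusted p = 1.65e-06). For all 3 genes every CORT library exceeded every VEH library. Without CONS VEH replicate 2, 12 members were raised and 1 was lowered. Fkbp5 was also the only called member among 21 genes for the receptor, its chaperones and CORT supply, a count near the share over all genes. Of these 21, Hsd11b1, which regenerates CORT in liver (log2 fold change 0.06, adjusted p = 0.86), and Serpina6, the plasma CORT carrier (-0.36, adjusted p = 0.18), did not pass. Without CONS VEH replicate 2 this second list held 1 raised and 1 lowered member.

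Genes of nitrogen handling were mostly raised where they were called, beside 4.45% raised and 4.75% lowered among all genes tested. Of 37 genes for amino acid breakdown, 10 were raised and 2 lowered, of 18 amino acid transporters 5 were raised and 0 lowered, of 16 genes for methionine and cysteine 4 were raised and 1 lowered, and of 8 genes of the urea cycle 4 were raised and 0 lowered. The median log2 fold changes of the 4 lists were 0.08, 0.25, 0.33 and 0.65, so in the longer lists most members lay near the median of all genes while a few moved far.

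Tdo2, which opens the ring of tryptophan, was at 3985, 2723 and 4025 CPM in CONS CORT and at 589, 989 and 937 CPM in CONS VEH (log2 fold change 2.09, SE 0.21, adjusted p = 7.25e-06). Tat, tyrosine aminotransferase, was at 2931, 2443 and 2680 CPM against 606, 718 and 954 CPM (log2 fold change 1.82, SE 0.30, adjusted p = 0.000631). Got1, the cytosolic aspartate aminotransferase, was at 792, 1058 and 977 CPM against 92.5, 85.1 and 129 CPM (log2 fold change 3.21, SE 0.21, adjusted p = 8.58e-08). With Sds and Etnppl these were the members with the largest changes, and in each the lowest CORT library lay above the highest VEH library. Enzymes of glycine, histidine and branched-chain amino acid breakdown such as Gldc (-0.41), Hal (0.08) and Bckdha (0.06) did not pass.

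Amino acid entry changed at Slc38a2, a sodium-coupled carrier of neutral amino acids, which was at 215, 338 and 248 CPM in CONS CORT and at 33.0, 41.0 and 43.1 CPM in CONS VEH (log2 fold change 2.78, SE 0.20, adjusted p = 2.38e-07). Slc7a2, a carrier of arginine and lysine, was at 2846, 2904 and 2573 CPM against 780, 694 and 1023 CPM (log2 fold change 1.74, SE 0.20, adjusted p = 1.98e-05). Slc16a10, an aromatic amino acid carrier, was at 498, 310 and 325 CPM against 113, 73.0 and 95.9 CPM (log2 fold change 2.00, SE 0.25, adjusted p = 5.25e-05). The groups did not overlap for these 3 carriers, whereas the glutamate carrier Slc1a2 (1.07) lost its call without CONS CORT replicate 1 or 2 or CONS VEH replicate 1 or 3 (0.79 to 1.05, adjusted p = 0.0818 to 0.146). Slc7a5 (-0.96) and Slc38a3 (-0.25) did not pass.

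In the urea cycle Slc25a15, the mitochondrial ornithine carrier, was at 785, 660 and 763 CPM in CONS CORT and at 138, 131 and 150 CPM in CONS VEH (log2 fold change 2.40, SE 0.15, adjusted p = 4.56e-08). Arg1, which releases urea, was at 957, 1151 and 967 CPM against 367, 474 and 440 CPM (log2 fold change 1.26, SE 0.20, adjusted p = 0.000495), and Ass1, argininosuccinate synthase, was at 3273, 3510 and 3832 CPM against 1456, 1914 and 1876 CPM (log2 fold change 1.02, SE 0.13, adjusted p = 8.47e-05). Together with Cps1 they covered the entry of ammonia, the carrier and the exit of urea, while Otc, the step between, had a log2 fold change of -0.50 (adjusted p = 0.027) and was below the fold threshold. Without CONS VEH replicate 2 this list held 4 raised and 1 lowered member. In the methionine and cysteine list, raised members included Mat1a, which makes S-adenosylmethionine (1.35, SE 0.13, adjusted p = 3.25e-06), Ahcy, which hydrolyses its product (0.99, SE 0.14, adjusted p = 0.000202), and Cdo1, which oxidises cysteine (0.79, SE 0.13, adjusted p = 0.000859). Gclm, a subunit of the glutathione-synthesising enzyme, was lowered (-0.89), and lost the call without CONS VEH replicate 3 (-0.64, adjusted p = 0.054).

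A few glucose genes were called. Of 12 gluconeogenesis genes, 4 were raised and 0 lowered (median log2 fold change 0.16), of 18 genes of glycolysis and hexose uptake 2 were raised and 2 lowered (-0.20), and of 10 genes of glycogen metabolism 1 was raised and 2 lowered (-0.47), beside 4.45% raised and 4.75% lowered among all genes. Without CONS VEH replicate 2 the glycolysis list held 3 raised members. Ppargc1a, the coactivator PGC-1alpha, was at 163, 148 and 175 CPM in CONS CORT and at 23.9, 17.4 and 21.9 CPM in CONS VEH (log2 fold change 2.93, SE 0.21, adjusted p = 1.83e-07). Pck1, which makes phosphoenolpyruvate, was at 3200, 3420 and 3379 CPM against 1740, 1459 and 2129 CPM (log2 fold change 0.91, SE 0.17, adjusted p = 0.00208). The groups were separate for both, and the change of the coactivator was larger in fold than that of the enzyme. Foxo1, a transcription factor that insulin switches off, was raised by 1.82 and Slc25a25, a mitochondrial carrier, by 1.75 on the log2 scale (adjusted p = 6.50e-06 and 0.00342). Slc37a4, the glucose-6-phosphate carrier (0.40, adjusted p = 0.102), Pc (-0.36) and Fbp1 (-0.27) did not pass. G6pc was listed at 0 reads in all 12 libraries, and no value is drawn from it.

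At the level of fructose-2,6-bisphosphate, Pfkfb1, the liver enzyme that makes and removes it, was at 375, 361 and 403 CPM in CONS CORT and at 38.2, 45.9 and 39.1 CPM in CONS VEH (log2 fold change 3.21, SE 0.24, adjusted p = 2.97e-07). Pklr, liver pyruvate kinase, was at 28.4, 36.2 and 36.9 CPM against 101, 103 and 148 CPM (log2 fold change -1.79, SE 0.27, adjusted p = 0.000332), and Khk, fructokinase, was at 146, 155 and 145 CPM against 233, 285 and 314 CPM (log2 fold change -0.90, SE 0.13, adjusted p = 0.00023). None of these groups overlapped. In the glycogen list Ppp1r3c, which brings phosphatase to glycogen, rose by 1.66 (adjusted p = 0.00291), and Gbe1, the branching enzyme, fell by 0.83 (adjusted p = 0.0011). Ugp2 fell by 0.85 with all libraries, with 1 high VEH library at 751 CPM, and by 0.39 (adjusted p = 0.275) without that library, CONS VEH replicate 3. It also lost the call without any 1 CORT library (adjusted p = 0.0911 to 0.11) and with a replicate block (0.0582).

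Lipid synthesis held the most uniform decreases. Of 17 genes for fatty acid synthesis and desaturation, 12 were lowered and 0 raised (median log2 fold change -1.14), and of 29 genes for sterol synthesis and uptake 18 were lowered and 1 raised, with a median of -0.82. Without CONS VEH replicate 2, 10 and 16 were lowered. The share of lowered genes over all genes was 4.75%. Fasn, fatty acid synthase, was at 61.1, 64.1 and 117 CPM in CONS CORT and at 357, 727 and 299 CPM in CONS VEH (log2 fold change -2.51, SE 0.40, adjusted p = 0.000514). Acly, which supplies cytosolic acetyl-CoA, was at 99.3, 113 and 131 CPM against 359, 526 and 328 CPM (log2 fold change -1.82, SE 0.31, adjusted p = 0.000959). Srebf1, the transcription factor that drives this pathway under insulin, was at 50.4, 111 and 72.0 CPM against 218, 212 and 252 CPM (log2 fold change -1.54, SE 0.28, adjusted p = 0.00148). For these genes, as for Scd, all CORT libraries lay below all VEH libraries, although the VEH values spread widely, with Fasn highest in replicate 2 and Scd highest in replicate 3.

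Among the sterol genes Hmgcs1, which makes the precursor HMG-CoA, was at 197, 150 and 355 CPM in CONS CORT and at 786, 974 and 590 CPM in CONS VEH (log2 fold change -1.74, SE 0.30, adjusted p = 0.00105). Msmo1, a sterol C4 demethylase, was at 35.3, 30.1 and 67.9 CPM against 158, 198 and 105 CPM (log2 fold change -1.79, SE 0.30, adjusted p = 0.000775). Mvd and Fdft1, which make isopentenyl diphosphate and squalene, fell by 1.72 and 1.56 (adjusted p = 0.000766 and 0.000775). CORT replicate 3 was the highest of its group for Hmgcs1, Msmo1 and Fdft1, and it still lay below every VEH library. The raised member, named after its values were seen, was Insig1, which holds the sterol-sensing complex in the endoplasmic reticulum, at 259, 281 and 380 CPM against 75.1, 208 and 80.9 CPM (log2 fold change 1.35, SE 0.42, adjusted p = 0.0457). Abca1, a cholesterol exporter (-0.05), did not pass.

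Of 21 triglyceride genes 3 were raised and 4 lowered, beside 4.45% and 4.75% of all genes, and without CONS VEH replicate 2, 4 were raised and 4 lowered. Beside Lpin1, the acyltransferase Gpat3 was at 22.3, 18.3 and 19.5 CPM in CONS CORT and at 2.81, 1.32 and 3.44 CPM in CONS VEH (log2 fold change 2.93, SE 0.28, adjusted p = 3.46e-06), whereas Gpam, the mitochondrial acyltransferase of the same step, was at 94.9, 119 and 93.1 CPM against 226, 223 and 218 CPM (log2 fold change -1.12, SE 0.19, adjusted p = 0.000885). The groups did not overlap for either enzyme, which thus moved in opposite directions. Dgat1 (0.08) and Dgat2 (0.01), which make the final bond, did not pass. Of 27 genes of fatty acid oxidation and ketogenesis, 3 were raised and 2 lowered (median 0.00). Ppara, the nuclear receptor that drives oxidation, was at 303, 282 and 207 CPM against 147, 49.4 and 81.4 CPM (log2 fold change 1.5, SE 0.28, adjusted p = 0.00197), and Cpt1a, the gate of fatty acids into mitochondria, was at 436, 338 and 320 CPM against 216, 119 and 167 CPM (log2 fold change 1.12, SE 0.19, adjusted p = 0.000893). Pdk4, a kinase that spares pyruvate, was lowered by -1.22 on the log2 scale (SE 0.26, adjusted p = 0.00542). Of 16 genes for apolipoproteins and very-low-density lipoprotein assembly, only Apoa4 was called, with a log2 fold change of -0.78 (adjusted p = 0.00702), and Apob (-0.25, adjusted p = 0.196) did not pass.

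Of 18 bile acid genes, 2 were raised and 5 lowered (median log2 fold change -0.35), beside 4.45% and 4.75% of all genes. Slc10a2, a sodium-dependent bile acid carrier, was at 3.25, 1.55 and 1.97 CPM in CONS CORT and at 14.5, 17.4 and 9.41 CPM in CONS VEH (log2 fold change -2.64, SE 0.30, adjusted p = 2.16e-05), with no overlap. Cyp7a1, the rate-limiting enzyme, was lowered by -0.89 (adjusted p = 0.0417) and lost the call without any 1 library other than CONS CORT replicate 2 (-0.67 to -0.98, adjusted p = 0.0601 to 0.174). Nr0b2, the repressor SHP, was raised by 1.39 with overlapping groups and lost the call without CONS CORT replicate 1 or 3 or CONS VEH replicate 1 or 3 (0.98 to 1.37, adjusted p = 0.09 to 0.192). Of 24 cytochrome P450 drug enzymes and their partner, 2 were raised and 6 lowered (median -0.17), and 5 lowered without CONS VEH replicate 2. Their summed level was 18243 to 22524 CPM in CONS CORT, 24380 to 28021 CPM in CONS VEH and 19477 to 21749 CPM in PULS VEH. CONS CORT thus overlapped the other vehicle group, and in pulses 4 members were raised and 0 lowered (median 0.51). The part of the vehicle group in the lower levels was not tested. Por, the reductase that feeds electrons to all of these cytochromes, was at 493, 410 and 377 CPM against 71.3, 58.6 and 64.8 CPM (log2 fold change 2.71, SE 0.16, adjusted p = 4.56e-08), far above every VEH library. The lowered members were of the Cyp2a and Cyp2c families, close relatives whose reads are hard to assign to single genes. Of 24 metabolic nuclear receptors, 5 were raised and 2 lowered (median -0.02), with 3 lowered without CONS VEH replicate 2, led by Nr1i2, the xenobiotic sensor PXR, at 252, 239 and 246 CPM against 93.0, 70.8 and 74.2 CPM (log2 fold change 1.63, SE 0.14, adjusted p = 1.23e-06). Rarb, a retinoic acid receptor, was lowered by -1.14 (adjusted p = 0.000408).

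**Figure D3:**
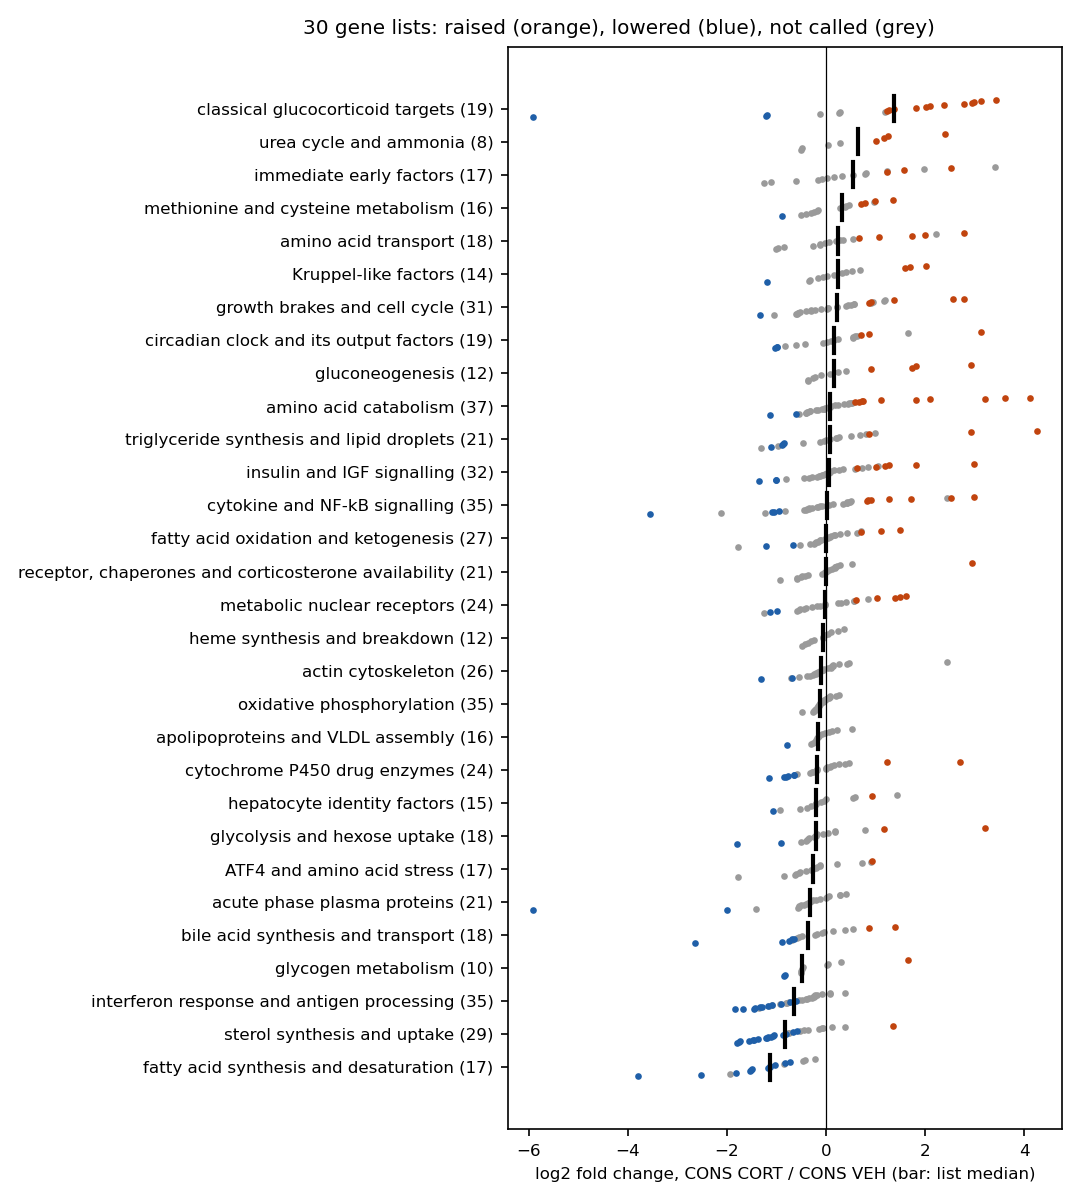
Log2 fold change of CONS CORT over CONS VEH for the members of 30 gene lists (number tested in brackets), raised in orange, lowered in blue and uncalled in grey, with a bar at each list's median. The medians run from 1.37 for known glucocorticoid targets to -1.14 for fatty acid synthesis, and most lists hold a majority of uncalled members around 0.

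Called genes of growth signalling included binding proteins and transducers. Of 32 genes of insulin and IGF signalling, 6 were raised and 3 lowered (median log2 fold change 0.07), and without CONS VEH replicate 2 these were 5 and 2, beside 4.45% raised and 4.75% lowered among all genes. Igfbp1, which binds IGF in plasma and falls with insulin, was at 251, 172 and 154 CPM in CONS CORT and at 19.3, 14.3 and 39.3 CPM in CONS VEH (log2 fold change 2.98, SE 0.37, adjusted p = 5.06e-05). Igfals, which carries IGF in its large plasma complex, was at 7.31, 6.62 and 9.13 CPM against 16.3, 19.4 and 23.2 CPM (log2 fold change -1.35, SE 0.19, adjusted p = 0.000202). The groups were separate for both. Pik3r1, the regulatory subunit of the insulin-activated lipid kinase, was raised by 1.27 (adjusted p = 1.86e-05), and Ghr was lowered as given above. Igf1 itself (0.27, adjusted p = 0.644), Insr (0.16) and Irs1 (0.09) did not pass.

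Of 31 genes for growth brakes and the cell cycle, 5 were raised and 1 lowered (median 0.22), beside 4.45% and 4.75% of all genes, and 0 were lowered without CONS VEH replicate 2. Cdkn1a, the cell cycle inhibitor p21, was at 24.6, 20.7 and 32.8 CPM in CONS CORT and at 4.03, 2.87 and 4.16 CPM in CONS VEH (log2 fold change 2.78, SE 0.28, adjusted p = 6.50e-06), and Errfi1, which blocks the EGF receptor, was at 1190, 1053 and 1113 CPM against 390, 496 and 417 CPM (log2 fold change 1.37, SE 0.23, adjusted p = 0.000729). In both every CORT library exceeded every VEH library. Mki67 (-1.05, adjusted p = 0.13) and Ccnd1 (-0.53, adjusted p = 0.45), which accompany division, did not pass. Of 17 immediate early genes, 3 were raised and 0 lowered (median 0.54), namely Zfp36, which destabilises cytokine mRNAs (2.52, adjusted p = 6.41e-05), Fosl2, an AP-1 subunit (1.58, adjusted p = 0.000407), and Dusp1, a MAP kinase phosphatase (1.23, adjusted p = 0.00589). Myc (0.79, adjusted p = 0.407) and Egr1 (0.81, adjusted p = 0.69) did not pass. Of 14 Kruppel-like factors, 3 were raised, Klf9 (2.02, adjusted p = 7.63e-06), Klf15 (1.70, adjusted p = 3.09e-07) and Klf13 (1.6, adjusted p = 3.92e-05), and Klf12 was lowered (-1.19, adjusted p = 0.00968) with overlapping groups.

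Of 19 clock genes, 3 were raised and 3 lowered (median log2 fold change 0.17), beside 4.45% and 4.75% of all genes, and 2 were raised without CONS VEH replicate 2. Per1 rose by 3.13, while Cry2, another repressor of the clock, was at 18.3, 13.8 and 13.3 CPM in CONS CORT and at 33.0, 26 and 30.2 CPM in CONS VEH (log2 fold change -0.99, SE 0.14, adjusted p = 0.00021). Per2 fell by 1.00 with all libraries and by 0.67 (adjusted p = 0.0863) without CONS VEH replicate 1, and was not called without CONS CORT replicate 2 either (adjusted p = 0.0514). Npas2 fell by 1.04 with all libraries and lost the call without CONS CORT replicate 1 or 3 or CONS VEH replicate 1 or 3 (adjusted p = 0.08 to 0.121). The core activators Arntl (-0.06) and Clock (0.02) did not pass.

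Of 35 genes of cytokine and NF-kB signalling, 7 were raised and 4 lowered (median 0.03), beside 4.45% and 4.75% of all genes, and without CONS VEH replicate 2 these were 8 and 3. The raised ones included Tsc22d3, Zfp36 and Il6r, the IL-6 receptor, which was at 282, 281 and 269 CPM in CONS CORT and at 99.3, 84.6 and 68.8 CPM in CONS VEH (log2 fold change 1.72, SE 0.16, adjusted p = 3.32e-06). Cxcl1, a neutrophil attractant, was at 1.22, 0 and 0.90 CPM against 5.13, 12.1 and 6.70 CPM (log2 fold change -3.56, SE 0.89, adjusted p = 0.0142), and lost the call without CONS CORT replicate 2 (-2.84, adjusted p = 0.0628). Il1b (-1.23, adjusted p = 0.056) and Nfkb1 (-0.18) did not pass. Of 35 genes of the interferon response and antigen processing, 11 were lowered and 0 raised (median -0.64), and without CONS VEH replicate 2, 7 were lowered and 0 raised (median -0.50), beside 4.75% of all genes lowered. The summed level of this list was 1379 to 1513 CPM in CONS CORT, 1775 to 2137 CPM in CONS VEH and 1533 to 1672 CPM in PULS VEH. CONS VEH thus lay above the other vehicle group, and in pulses 0 members were raised or lowered (median 0.01). The part of the vehicle group in these decreases was not tested. Irf1, an interferon-induced factor, was at 8.33, 10.3 and 4.48 CPM against 23.3, 36.6 and 24.6 CPM (log2 fold change -1.84, SE 0.25, adjusted p = 0.000109). Tap1, a peptide carrier of antigen presentation, was at 7.72, 13.4 and 8.06 CPM against 25.5, 27.6 and 27.7 CPM (log2 fold change -1.44, SE 0.24, adjusted p = 0.000664). Psmb8, an immunoproteasome subunit, was at 8.73, 8.16 and 8.42 CPM against 19.2, 25.4 and 25.2 CPM (log2 fold change -1.45, SE 0.17, adjusted p = 2.76e-05). For these 3 genes every CORT library lay below every VEH library, and each was also called without CONS VEH replicate 2. The summed level of 10 Kupffer cell and macrophage markers was 423 to 483 CPM in CONS CORT and 374 to 679 CPM in CONS VEH, with 0 of 10 called, and that of 7 T and NK cell markers was 18.7 to 25.6 against 18.2 to 34.2 CPM, with 0 of 7 called. The part of immune cell number in the lower interferon genes was not tested. Of 21 acute phase plasma proteins 2 were lowered, Lcn2 and Orm1, and 0 without CONS VEH replicate 2.

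CORT given in hourly pulses, to other rats with a vehicle group of their own, changed 596 genes (4.23%) relative to its own vehicle, 252 raised (1.79%) and 344 lowered (2.44%). Of the genes raised by constant CORT, 183 were also raised in pulses, which is 29.2% of the constant and 72.6% of the pulsatile list, and of those lowered 171 were also lowered, which is 25.5% and 49.7%. None was called in opposite directions. For the 627 genes raised by constant CORT the median log2 fold change was 0.99 in the constant infusion and 0.58 in pulses, and for the 670 lowered genes -0.99 and -0.50. Because the constant response chose these genes, a smaller median in pulses is in part given by the choice. Tested directly, the responses differed for 4 genes (0.0284% of those tested, with 1749 at an unadjusted p below 0.05), Psmb8, Ppargc1a, Cyp2c22 and Csrp1. This number depends on the setting, being 229 by DESeq2, 204 with no filter on low counts, and 1 to 289 on leaving out 1 library, the most without CONS VEH replicate 1. Psmb8 fell in constant infusion as given above, and was at 20.2, 22.5 and 17.4 CPM in PULS CORT and at 11.6, 16.1 and 15.1 CPM in PULS VEH. Cyp2c22, a cytochrome, was at 1008, 1200 and 1141 CPM in CONS CORT, at 1305, 1315 and 1441 CPM in CONS VEH, at 2310, 1840 and 1578 CPM in PULS CORT and at 844, 640 and 1020 CPM in PULS VEH. The CORT values of both lay below vehicle in the constant infusion and above it in pulses. Cyp2c22 was not called in the constant infusion (log2 fold change -0.28, adjusted p = 0.327), and Psmb8 was not called in pulses (0.49, adjusted p = 0.0992). For Psmb8, Cyp2c22 and Csrp1 every CONS VEH library lay above every PULS VEH library. The part of the vehicle groups in these differences was not tested. Scd (-3.80 in constant, 0.82 in pulses), Fasn (-2.51 and -0.42) and Pklr (-1.79 and -0.02) were not called by edgeR's test (adjusted p of the difference 0.0887, 0.119 and 0.0721). The 2 vehicle groups differed at 0 genes (0.0%) by edgeR's test, with 1286 genes at an unadjusted p below 0.05, and at 20 genes by DESeq2. Fatty acid synthesis genes were nevertheless spread in the vehicles, Fasn lying at 299 to 727 CPM in CONS VEH and 169 to 521 CPM in PULS VEH.

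**Figure D4:**
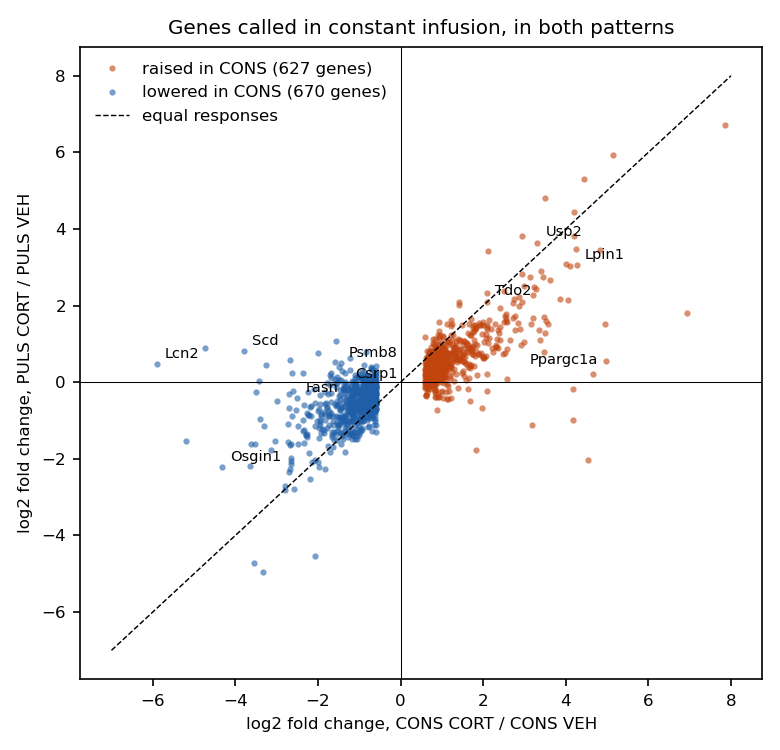
Log2 fold change in the constant infusion (horizontal axis) against that in pulses (vertical axis), each against its own vehicle, for the 627 genes raised (orange) and the 670 lowered (blue) in the constant infusion, with a dashed line of equal responses and some genes named. The sign is the same in both for 559 of the raised and 589 of the lowered genes, and most points lie nearer to 0 in pulses.

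Elongating RNA polymerase, marked by phosphorylation of serine 2 (pSer2 Pol2), was measured in separate ChIP-Seq libraries, 2 for constant CORT at 180 min (CONS_180) and 2 for vehicle given in pulses (VEH, replicate 1 taken at 140 min and replicate 2 at 180 min, as for GR), and each library pools several rats per the methods. Deposited log2 tag values over the first 10 kb of coding regions were compared with limma, and 38 of 16568 genes were called (0.229%), 29 raised and 9 lowered. Of the 29 raised genes 28 had raised mRNA, and of the 9 lowered genes 6 had lowered mRNA. Among genes with raised mRNA and a region, 507 of 565 (89.7%) had a polymerase change above 0, with a median of 0.29 on the log2 scale, compared with 21.3% of 578 genes with lowered mRNA (median -0.26) and 56.2% of all 11543 (median 0.00). The libraries and the vehicle of this assay are not those of the RNA. The number called rests on the shared spread of 10 libraries, being 3 with only the 4 libraries compared, 0 without CONS_180 replicate 2, 1 without CONS_180 replicate 1, 5 without VEH replicate 2, 36 without VEH replicate 1 and 447 with each library centred on its median (228 raised, 219 lowered). On leaving out any 1 of the 4 libraries 0 genes were called lowered, and with only these 4 libraries 1 was. Zbtb16 had log2 polymerase values of 9.53 and 9.13 in CONS_180 and of 3.96 and 2.84 in VEH (log2 difference 5.93, SE 0.63, adjusted p = 0.00246), and Lpin1 had values of 11.3 and 10.9 and of 7.53 and 5.85 (4.43, SE 0.47, adjusted p = 0.00246). Fads2, a fatty acid desaturase named after its values were seen, had values of 1.85 and 2.21 in CONS_180 and of 9.16 and 8.85 in VEH (-6.97, SE 0.87, adjusted p = 0.0068), beside a change of -1.18 in its mRNA. In all 3 both CONS_180 libraries stood on the same side of both VEH libraries. Genes called lowered in polymerase with all libraries, and not called in mRNA, were Serpina6 (polymerase -3.59, mRNA -0.36), Car3, a carbonic anhydrase (-3.89 and -0.45), and UST4r, an organic anion carrier (-2.33 and -0.94), and the gene called raised in polymerase and not in mRNA was Bhmt, a homocysteine methyltransferase (2.05 and 0.47), all 4 named after their values were seen.

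GR binding was deposited as lists of peaks, which the authors called over input DNA and kept where both libraries of a group gave them, 2428 peaks at CONS_180 and 118 in VEH. A peak centre lay within 50 kb of the transcription start site (TSS) of 317 of 626 raised genes (50.6%, Wilson 95% interval 46.7% to 54.5%), of 134 of 669 lowered genes (20.0%, 17.2% to 23.2%) and of 2302 of all 14074 genes with a position (16.4%, 15.8% to 17%). With the VEH peaks the shares were 1.12%, 1.5% and 0.682%. The intervals treat genes as independent, which neighbouring genes are not. Among raised genes the share was 60.5% for 38 genes changed more than 8-fold, 74.1% of 58 at 4- to 8-fold, 59.2% of 211 at 2- to 4-fold and 39.5% of 319 below 2-fold. Among lowered genes it was 27.9% of 68 changed more than 4-fold, 19.4% of 258 at 2- to 4-fold and 19.0% of 343 below 2-fold. The median distance to the nearest peak was 48.0 kb for raised genes, 260 kb for lowered genes and 297 kb for all genes. Peaks lay within 1 kb of the TSS of several leading raised genes, Upp2 (0.081 kb), Tdo2 (0.14 kb), Mat1a (0.151 kb), Sds (0.155 kb), Cps1 (0.167 kb), Pck1 (0.414 kb) and Tsc22d3 (0.913 kb), while those nearest to Ppargc1a and Foxo1 were 262 and 259 kb away. The TSS was the upstream end of each gene's deposited region with the highest mean polymerase value, or of the first listed where none had tags. It need not be the main start of the gene. The paper places the GR sites near Sds several kilobases upstream of its TSS, so the distances here hold only for the start used.

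**Figure D5:**
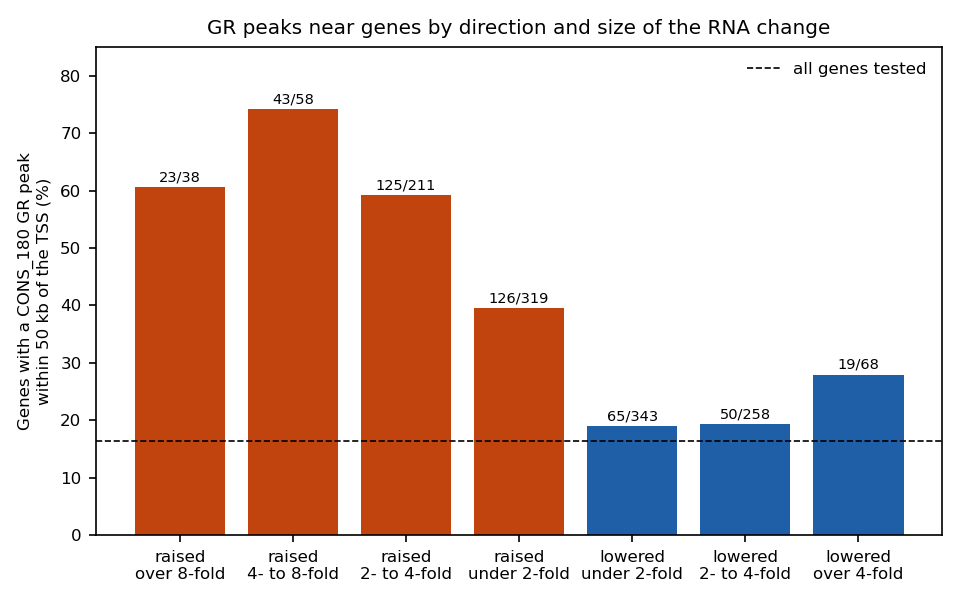
Share of genes (vertical axis, percent) with a CONS_180 GR peak centre within 50 kb of the TSS, by direction and size of the change in mRNA, with the number of genes with a peak and of all genes above each bar and a dashed line at the 16.4% of all genes tested. The bars of raised genes (orange) stand at 39.5% to 74.1% and those of lowered genes (blue) at 19.0% to 27.9%.

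Promoter sequence is shown for the named genes that had a CONS_180 peak centre within 0.5 kb of the TSS and also held the core letters of a GR response element, ACANNNTGT, which read the same on both strands, in the 250 bases before the start. These were 3 raised genes, Cps1, Tdo2 and Upp2, and Orm1, whose lower level rests on CONS VEH replicate 2. Sequences are RefSeq's for build GRCr8, from 5' to 3' on the strand of the gene, with the matching letters in capitals, while the peak distances above were taken in rn6, and a matching stretch is a description of the letters and not a measured site. The coordinates in GRCr8 are chr9:76063613-76063862 (+) for Cps1, chr2:169585587-169585836 (-) for Tdo2, chr3:63681576-63681825 (+) for Upp2 and chr5:81788259-81788508 (+) for Orm1.
Cps1: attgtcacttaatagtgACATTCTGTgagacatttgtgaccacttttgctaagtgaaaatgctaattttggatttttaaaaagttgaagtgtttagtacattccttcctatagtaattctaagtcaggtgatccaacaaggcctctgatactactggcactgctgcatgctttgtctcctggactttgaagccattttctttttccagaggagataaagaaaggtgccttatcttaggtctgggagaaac
Tdo2: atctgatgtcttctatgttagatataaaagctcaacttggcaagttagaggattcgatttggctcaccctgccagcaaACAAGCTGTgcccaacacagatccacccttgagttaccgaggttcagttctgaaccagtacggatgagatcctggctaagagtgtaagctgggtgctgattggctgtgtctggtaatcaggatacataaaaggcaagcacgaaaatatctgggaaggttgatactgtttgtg
Upp2: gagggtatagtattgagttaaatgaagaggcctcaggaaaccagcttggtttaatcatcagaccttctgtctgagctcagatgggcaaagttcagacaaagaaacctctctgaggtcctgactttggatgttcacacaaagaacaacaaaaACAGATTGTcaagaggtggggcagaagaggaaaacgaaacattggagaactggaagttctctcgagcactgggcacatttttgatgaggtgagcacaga
Orm1: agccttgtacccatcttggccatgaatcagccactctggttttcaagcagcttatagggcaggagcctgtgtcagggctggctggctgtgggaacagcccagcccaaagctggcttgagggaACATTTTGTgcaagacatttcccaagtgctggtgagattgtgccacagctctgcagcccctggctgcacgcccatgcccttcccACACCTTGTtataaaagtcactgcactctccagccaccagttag

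The match began 233 bases before the start in Cps1, 172 in Tdo2 and 99 in Upp2, and Orm1 held 2 matches, the first at 128. Of 27457 RefSeq promoters of the same span, 5.62% held the letters. Only 77.7% of raised and 73.7% of lowered genes could be matched to a promoter, and 75% of all genes tested, so a comparison of these sets is void. Among the promoters that were matched, 3.08% of raised, 4.45% of lowered and 3.47% of all genes tested held the letters.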

How the data were processed

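Liver RNA was made into TruSeq Stranded Total RNA libraries and sequenced on an Illumina HiSeq instrument. The submitters' processing notes name Trimmomatic 0.36, STAR, featureCounts 1.6.2, HOMER 4.9.1 and build rn6. The authors deposited raw read counts per gene for the 12 RNA libraries, log2 pSer2 Pol2 tag values over the first 10 kb of coding regions, and GR peak coordinates with HOMER scores, the scores not being used here. Per the methods, reads in exons of Ensembl genes were counted. Gene symbols came from the deposited Pol2 table and were found for 14074 of the 14092 genes tested. Columns that hold the authors' own comparisons were not used.

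Genes above 10 reads, summed over all 12 libraries, were fitted together with edgeR 4.0.16 (TMM scaling, quasi-likelihood test) in R 4.3.3, with 1 group term, and calls took an adjusted p (Benjamini-Hochberg) under 0.05 together with a 1.5-fold difference. CPM are TMM-scaled. The log2 Pol2 values were tested with limma 3.58.1 over 10 libraries. Distances ran from the TSS to the nearest peak centre, and bedtools 2.31.1 served only to find CONS_180 peaks that overlap no VEH peak. DESeq2 1.42.0 was an alternative, as were other filters, thresholds, a replicate block and leaving out each library. The fits were tested on simulated data. Depth was 4711659 to 7777219 reads per library in the constant groups, and intervals on reads cover counting error only.

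The members and gene lists were chosen with earlier results of these data known. Named genes were 125. They were the 12 raised and 12 lowered called genes with the largest fold change at a mean of 5 CPM or more whose groups did not overlap, up to 4 called members of each list by fold change, the 8 called genes in each direction with the largest change in reads, the 5 with the smallest p for the difference between the constant and pulsatile responses, and genes the study discusses (Sds, Lpin1, G6pc, Slc37a4, Apob, Igfbp1, Igf1, Myc and Per1). Other list members are given with their values where not called. Some genes are not reported here.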

Additional observations from a re-analysis of the deposited data

Results flagged for a closer look

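The response differed between constant and pulsatile CORT for 4 genes by edgeR's test of the difference (constant minus pulsatile, log2). The number is 229 by DESeq2, 204 with no filter on low counts and 1 to 289 on leaving out 1 library, the most without CONS VEH replicate 1. Psmb8, an immunoproteasome subunit, differed by -1.94 (SE 0.24, adjusted p = 0.00568), being lower with CORT than vehicle in 3 of 3 libraries in the constant infusion and higher in 3 of 3 in pulses. Ppargc1a differed by 1.95 (SE 0.29, adjusted p = 0.0323). It was at 163, 148 and 175 CPM against 23.9, 17.4 and 21.9 CPM in the constant infusion, and at 58.5, 32.6 and 41.8 CPM against 17.8, 20.6 and 29.9 CPM in pulses, so that CORT values were above vehicle in both. Cyp2c22 differed by -1.47 (SE 0.24, adjusted p = 0.0416), and was not called in the constant infusion itself (-0.28, adjusted p = 0.327). For Psmb8, Cyp2c22 and Csrp1 every CONS VEH library lay above every PULS VEH library, and the part of the vehicle groups was not tested. Csrp1, a LIM domain protein of the actin cytoskeleton, differed by -1.26 (SE 0.20, adjusted p = 0.0416), at 30.7, 27 and 32.2 CPM against 67.4, 76.0 and 79.1 CPM in the constant infusion and at 53.9, 52.7 and 44.2 CPM against 43.8, 48.9 and 64.1 CPM in pulses, where the groups overlapped.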

How the results depend on the processing

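The number of genes called for constant CORT was 1297, and 832 at an adjusted p below 0.01 and 998 to 1224 on leaving out 1 library. The replicate numbers in the labels do not pair the samples: the deviations of same-numbered CORT and VEH libraries correlated at 0.06, -0.04 and 0.11, and not every library correlated best with its own number. With the replicate block 1307 genes were called. Among 125 named genes, 1428 of 1499 values under the alternatives kept direction and side of the threshold, 71 lost the call and 0 reversed. By gene, 103 of the 125 had the same call in every setting. Many were picked for large changes in this comparison, so these shares do not carry over to all 1297 calls. Of those, 716 were kept on leaving out each of the 6 libraries in turn. The difference from the pulsatile response was called for 4 genes, for 1 at an adjusted p below 0.01, 204 with no filter on low counts, 229 with DESeq2, 9 with the replicate block and 1 to 289 on leaving out 1 library, the most without CONS VEH replicate 1. The vehicle groups differed at 0 genes, at 30 with no filter, 20 with DESeq2 and 0 to 23 on leaving out 1 library, the most again without CONS VEH replicate 1. pSer2 Pol2 calls went from 38 to 447 with each library centred on its median, to 3 with only the 4 libraries compared and to 0 to 36 on leaving out 1 library. The share of called genes with a GR peak near the TSS was 34.8% at 50 kb, 16.1% at 10 kb, 44.5% at 100 kb and 29.6% with the CONS_140 peaks. The cause of these moves was not tested. An alternative chosen after seeing the data, without CONS VEH replicate 2, changed the number called from 1 to 0 in the ATF4 list, from 2 to 0 in acute phase proteins, from 11 to 7 in the interferon list and from 1 to 2 in the list of the receptor and CORT supply. Few reads limit genes below 1 CPM, where the median standard error was 0.85.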

Other observations

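Several gene lists held few or no called genes, beside 9.2% called among all genes tested. In lists this short, a count near that share says little about the function. Of 35 genes of oxidative phosphorylation 0 were raised or lowered by edgeR's test, with log2 fold changes from -0.47 to 0.26 and a median of -0.12 against -0.01 over all genes. Of 12 genes of heme synthesis and breakdown 0 were called (-0.49 to 0.38, median -0.06). Of 17 genes of the ATF4 response to amino acid stress 1 was raised, Sesn2, an inhibitor of growth signalling (0.94), which lost the call without CONS CORT replicate 2 (0.75), CONS VEH replicate 1 (0.90) or CONS VEH replicate 2 (0.87).

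Of 15 transcription factors of hepatocyte identity 1 was raised and 1 lowered, beside 4.45% raised and 4.75% lowered among all genes tested. Xbp1, a factor of the secretory pathway (0.93), lost the call without CONS CORT replicate 2 or 3 or CONS VEH replicate 1 or 3 (0.61 to 0.93) and with only the 6 libraries compared (adjusted p = 0.0528). Tbx3 (-1.06) lost it without CONS CORT replicate 1 (-1.02) or 2 (-0.84). Of 26 genes of the actin cytoskeleton 2 were lowered and 0 raised (median -0.09), among them Tpm1, a tropomyosin, with a log2 fold change of -0.68, which was -0.57 and under the fold threshold without CONS VEH replicate 1.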
